A study of Mus musculus with 18 samples.

Results

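Pyruvate entry into the citric acid cycle was described here through 10 genes of the 18946 in a liver RNA sequencing table, and the 10 were chosen by name: the mitochondrial pyruvate carriers Mpc1 and Mpc2, the pyruvate dehydrogenase (PDH) complex subunits Pdha1, Pdhb, Dlat and Pdhx, the PDH kinases Pdk1, Pdk2 and Pdk4, and the PDH phosphatase Pdp2. All 10 were listed and all 10 passed the filter on low values. The livers came from male mice of the inbred strain C57BL/6J, 8 Young (6.18 months per the labels) and 10 Old (19.76 months per the labels, whereas the design text gives 20 and the growth protocol 21 months). Every mouse, Young or Old, had fasted for 14 hours and then undergone a 150-minute hyperinsulinemic-euglycemic clamp, an insulin infusion during which glucose is given to keep its blood level steady, together with infusions of labelled glucose, lactate and palmitate through a jugular catheter; no liver without insulin was compared. RNA was extracted with the AllPrep kit for 3 Young and 5 Old livers and with the RNeasy kit for 5 Young and 5 Old livers. The labels also give, for each liver, the flux through PDH and the percentage of citrate carbon entry that came from pyruvate, so that RNA and flux can be compared in the same animal.

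Pyruvate made in the cytosol crosses the inner mitochondrial membrane through a carrier built from the Mpc1 and Mpc2 proteins. The PDH complex then turns it into acetyl-CoA: Pdha1 and Pdhb form the decarboxylase, Dlat carries the acetyl transfer, Dld reoxidises the lipoyl arm, and Pdhx anchors Dld to the Dlat core. Kinases of the Pdk family phosphorylate the Pdha1 subunit and switch the complex off, and the phosphatases Pdp1 and Pdp2 switch it on again. In liver, Pdk4 is known as the isoform that rises with fasting and fatty acid use and falls with insulin. RNA levels do not show the phosphorylation state.

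Upstream sequences are shown for Pdk4, the member with the widest range. Also shown are those of Pdhx, Dlat and Pdp2, whose levels varied together between livers, as in other pairs, but less without Old replicate 14. They come from RefSeq (build GRCm38.p6), which held 13 windows for the 10 genes, and each is the 250 bases before the annotated start, 5′ to 3′ on the gene's strand: Pdk4 at chr6:5496279-5496528 (minus strand), Pdhx at chr2:103073514-103073763 (minus), Dlat at chr9:50659781-50660030 (minus) and Pdp2 at chr8:104591222-104591471 (plus). Capitals mark, on either strand, a CCAAT box (CCAAT), a GC box (GGGCGG), an E-box (CACGTG) or a cyclic AMP response half-site (TGACG). A forkhead motif (GTAAACA) and an ETS motif (CCGGAAG) were also searched on both strands and had no match in these 4 windows.
Pdk4: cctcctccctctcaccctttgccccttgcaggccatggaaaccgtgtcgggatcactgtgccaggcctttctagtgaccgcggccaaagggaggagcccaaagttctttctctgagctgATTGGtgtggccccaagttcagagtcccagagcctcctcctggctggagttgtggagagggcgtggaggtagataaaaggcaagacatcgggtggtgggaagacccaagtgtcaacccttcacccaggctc
Pdhx: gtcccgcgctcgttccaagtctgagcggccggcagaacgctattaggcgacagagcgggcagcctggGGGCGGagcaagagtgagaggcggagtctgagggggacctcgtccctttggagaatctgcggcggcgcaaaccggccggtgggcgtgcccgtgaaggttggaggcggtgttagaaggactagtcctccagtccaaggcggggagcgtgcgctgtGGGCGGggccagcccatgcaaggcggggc
Dlat: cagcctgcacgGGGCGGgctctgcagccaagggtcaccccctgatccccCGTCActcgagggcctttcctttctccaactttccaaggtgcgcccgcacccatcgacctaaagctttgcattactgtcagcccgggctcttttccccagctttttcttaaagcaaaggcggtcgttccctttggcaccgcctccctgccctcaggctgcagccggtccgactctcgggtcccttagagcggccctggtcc
Pdp2: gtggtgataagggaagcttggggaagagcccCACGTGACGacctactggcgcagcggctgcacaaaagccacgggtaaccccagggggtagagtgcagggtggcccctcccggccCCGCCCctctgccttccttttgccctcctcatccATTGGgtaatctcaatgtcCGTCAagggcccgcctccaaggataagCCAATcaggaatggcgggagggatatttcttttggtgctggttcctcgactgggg
The Pdk4 window held 1 CCAAT box, on the opposite strand 131 bases before the start, and none of the other motifs. Pdhx had 2 GC boxes, 29 and 183 bases before the start. Dlat had 1 GC box and 1 half-site, and Pdp2 had 2 CCAAT boxes, 1 GC box, 1 E-box and 2 half-sites, of which the one 215 bases before the start overlaps the E-box. Pdhx, Dlat and Pdp2 each held a GC box, as did 7 of the 10 members in at least 1 window. Of 32851 mouse windows of the same length, 32.7% held a GC box, 33.8% a CCAAT box, 17.8% a half-site, 6.02% an E-box, 3.17% the forkhead and 6.91% the ETS motif, so a match describes the letters only.

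Levels are given as TPM, reads per gene length scaled to the same total in each library, after scaling for composition (scaled TPM), so they can be set against each other between genes. The reads recovered from the table numbered 85790735 to 127487820 in a library, and no member had fewer than 1404 reads in a library. Old replicate 14 stood apart from the other libraries: its mean correlation with them was 0.936, against 0.968 to 0.981 for the other 17. It had the lowest level of Pdk1, Pdk2, Pdp2, Dlat and Pdhx and the highest of Mpc1 among all 18. Markers of hepatocytes were high in every library (summed 101698 to 138525 scaled TPM in Young and 107006 to 146704 in Old). The sum does not show each marker: 6 of the 8 had a log2 fold below 0 in Old (median -0.19), and 0 were called. With 8 markers listed for each of 3 other cell types, macrophage markers summed to 138 to 289 scaled TPM in Young and 136 to 424 in Old, lymphocyte markers to 7.80 to 16.6 and 11.3 to 35.9, and stellate cell markers to 173 to 264 and 183 to 317. Limma called 2 of 8 macrophage and 1 of 8 lymphocyte markers higher in Old, against 2.44% of all genes tested. The part of other cell types in the results below was not tested. Of the 6 adipocyte markers only 2 were listed, and of the 6 skeletal muscle markers 1. Endothelial markers summed to 171 to 257 scaled TPM in Young and 171 to 264 in Old, and cholangiocyte markers to 26.4 to 65.4 and 23.9 to 87.9. The 2 adipocyte markers listed summed to 24.6 to 76.8 in Young and 49.2 to 196 in Old, and neither passed (log2 folds 0.58 and 0.67). Old replicate 14 had the highest hepatocyte, lymphocyte, endothelial, adipocyte and cholangiocyte sums among the Old livers. In bulk liver, fewer cells of a type and less RNA per cell cannot be told apart.

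Over all 18 libraries the carrier subunit Mpc2 was highest, with a median of 273 scaled TPM. The decarboxylase subunits followed at 111 (Pdhb) and 91.7 (Pdha1), then Pdk2 at 81.1 and Mpc1 at 68.8. A lower tier held Pdk1 at 36.3, Pdp2 at 31.1, Dlat at 26.7, Pdk4 at 26.0 and Pdhx at 22.4. Mpc2 was above Pdhb in 18 of 18 libraries and Mpc1 above Pdk1 in 18 of 18, whereas Pdk2 exceeded Mpc1 in 12, Dlat exceeded Pdk4 in 9 and Pdk4 exceeded Pdhx in 12, so these neighbours cannot be put in a fixed order. The remaining core subunit Dld, not one of the 10, had medians of 105 in Young and 103 in Old.

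**Figure D1:**
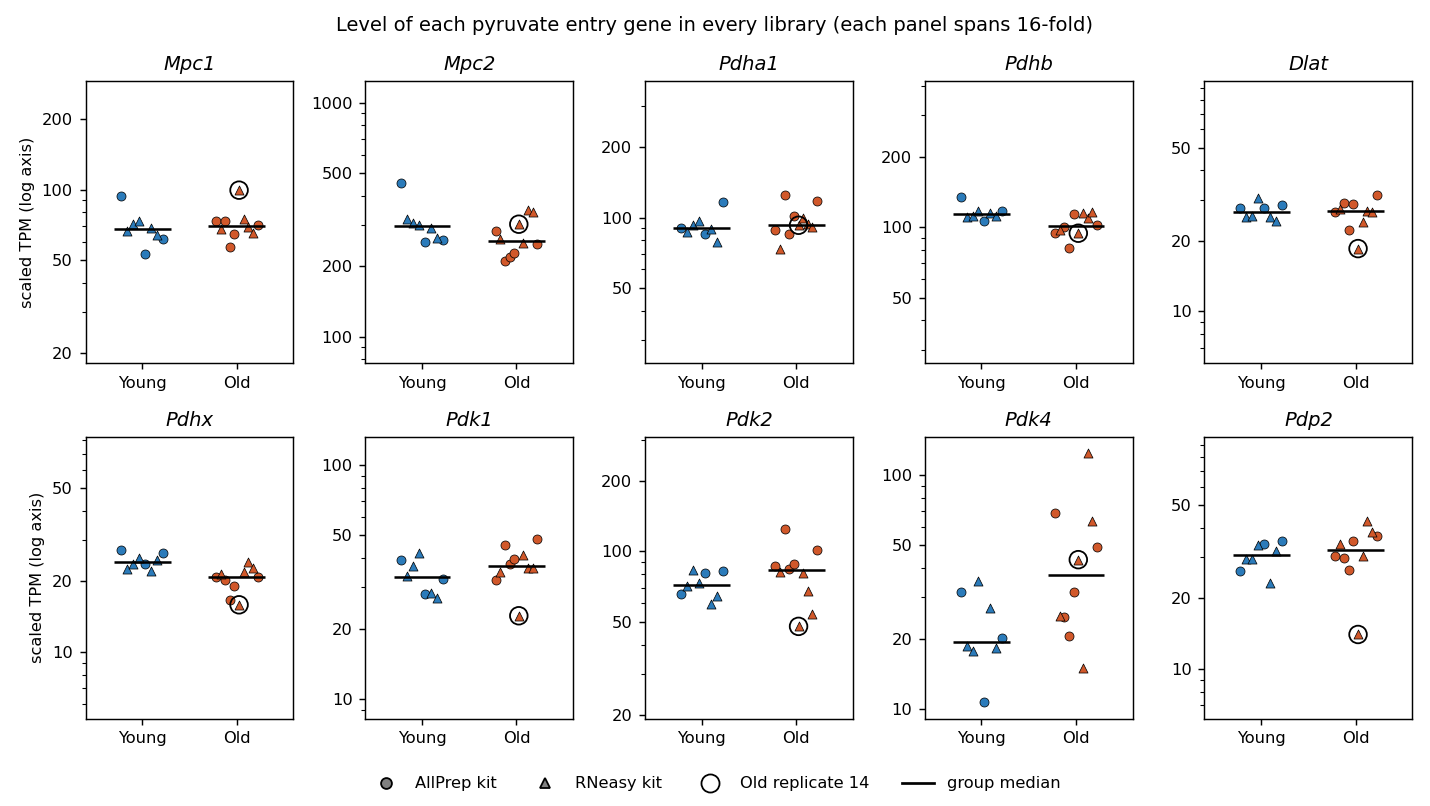
Scaled TPM (log axis, each panel spanning the same fold range) of the 10 genes in each of 8 Young and 10 Old livers; circles are AllPrep and triangles RNeasy libraries, black lines are group medians, and the ring marks Old replicate 14. Pdk4 spreads most, from 10.7 to 124.3 scaled TPM, and 8 of 10 Old livers lie below every Young liver for Pdhx.

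Differences with age were tested across 13895 genes with limma, with age and kit as terms, and none of the 10 genes passed the threshold of an adjusted p of 0.05, in either direction. Among all genes tested 4.91% passed, 2.44% higher and 2.47% lower in Old. At an unadjusted p under 0.05, 1 member was higher (Pdk4) and 2 were lower (Pdhb and Pdhx), against 11.8% and 11.6% of all genes. Testing the recovered reads with limma-voom gave the same counts, 0 adjusted, and 1 higher and 2 lower unadjusted. The median log2 fold of the 10 was 0.029, against 0.0037 for all genes.

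Pdk4 had the widest difference. It was measured at 10.7, 19.3 and 35.3 scaled TPM (lowest, median, highest) in Young and at 15.0, 37.5 and 124.3 in Old. Of the Old livers 9 of 10 were above the Young median, and 10.2% of all genes tested had at least 9 Old livers above it. The means were 22.4 ± 8.18 (SD, n = 8) and 46.6 ± 32.8 (SD, n = 10), and the fitted level in Old was 1.85 times that in Young (95% interval 1.12 to 3.06; log2 fold 0.88 ± 0.35, SE), with an unadjusted limma p of 0.0199 and an adjusted p of 0.135. Old replicates 16, 5 and 17 were highest, at 124.3, 68.4 and 63.7 scaled TPM. Only 5 of 10 Old livers were above the highest Young liver, and the share of all genes with as many was not computed. The other Old livers lay within the Young range, the lowest being Old replicate 15 at 15.0. The log2 fold was nearly the same within each kit, 0.88 in AllPrep (95% interval -0.09 to 1.84) and 0.89 in RNeasy libraries (-0.19 to 1.98), and 0.67 without Old replicate 16. With body weight as a term, it was 1.69 ± 0.58 (SE, limma adjusted p = 0.25). Every Old mouse was heavier than every Young mouse per the labels, so that fit cannot separate weight from age.

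Pdk2, the most abundant of the kinases in most livers, was measured at 59.7, 72.2 and 82.9 scaled TPM in Young and at 47.8, 83.0 and 124.8 in Old (log2 fold 0.08 ± 0.12, SE; limma adjusted p = 0.714). Its Old livers split by kit: the 5 AllPrep libraries had 84.4 to 124.8 and the 5 RNeasy libraries 47.8 to 81.6. In Young the kits overlapped (66.0 to 82.6 and 59.7 to 82.9). The Old AllPrep mice tended to be heavier than the Old RNeasy mice, and the part of weight in this split was not tested. The share of all genes with such a split was not computed. The log2 fold was 0.33 in AllPrep and -0.10 in RNeasy libraries. A test of that difference between kits gave -0.43 ± 0.23 on the log2 scale (SE; limma adjusted p = 0.975), and 0 of the 10 genes passed it, as did 0% of all genes. At an unadjusted p under 0.05 that interaction called 0 members and 4.22% of all genes.

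Pdk1, another liver kinase isoform, had 27.0, 33.1 and 41.9 scaled TPM in Young and 22.7, 37.0 and 48.1 in Old (log2 fold 0.13 ± 0.12, SE; limma adjusted p = 0.533). Without Old replicate 14, its lowest liver, the log2 fold was 0.22 (limma unadjusted p = 0.043, adjusted p = 0.184). Pdk3, the remaining isoform, was at no more than 0.35 scaled TPM in any liver and did not pass the filter on low values.

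The kinase mixture differed between livers mainly through Pdk4. As a share of summed Pdk1 to Pdk4 TPM, Pdk4 made up 8.86%, 15.8% and 23.4% (lowest, median, highest) in Young and 10.9%, 22.3% and 54.4% in Old. Pdk2 was the leading isoform in 8 of 8 Young and 8 of 10 Old livers. Pdk4 led in the other 2, with 54.4% in Old replicate 16 and 41.3% in Old replicate 17. Summed kinase TPM was 110 to 150 in Young and 114 to 229 in Old. Divided by the phosphatases Pdp1 and Pdp2 it was 3.34, 4.21 and 5.05 in Young and 3.94, 5.27 and 7.49 in Old; the highest ratio was that of Old replicate 14, whose Pdp2 was lowest.

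**Figure D2:**
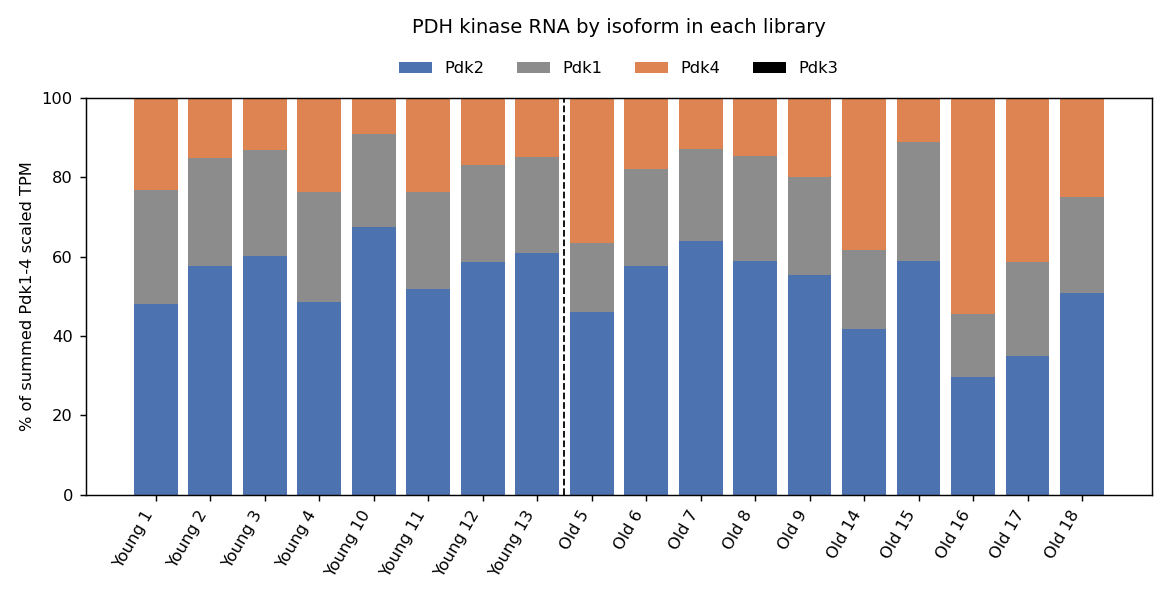
Percentage of the summed Pdk1 to Pdk4 scaled TPM taken by each isoform in every liver, Young left and Old right of the dashed line. Pdk4 takes the largest share only in Old replicates 16 and 17, and Pdk3 stays below 0.25%.

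Among the PDH subunits, the log2 fold of Pdhx lay farthest below 0. It was measured at 22.1, 24.2 and 27.1 scaled TPM in Young and at 15.9, 20.8 and 24.1 in Old. All 10 Old livers were below the Young median, as in 3.93% of all genes, and 8 of 10 were below the lowest Young liver, as in 1.93% of all genes (at least 8). The means were 24.4 ± 1.75 (SD, n = 8) and 20.4 ± 2.59 (SD, n = 10), and the fitted level in Old was 0.834 times that in Young (95% interval 0.746 to 0.933; log2 fold -0.26 ± 0.08, SE). The limma p was 0.00319 unadjusted and 0.0582 adjusted, just short of the threshold. Without Old replicate 16 the adjusted p was 0.0306 (log2 fold -0.29) and without Old replicate 17 it was 0.0436 (log2 fold -0.28); these were the Old livers with the highest Pdhx. Without Old replicate 14, which had the lowest level, the log2 fold was -0.21 (limma adjusted p = 0.0574). In AllPrep libraries Old livers had 16.6 to 20.9 and Young livers 23.7 to 27.1, with no overlap, as in 6.02% of all genes (log2 fold -0.39). In RNeasy libraries the ranges were 15.9 to 24.1 and 22.1 to 25.3 and they overlapped (log2 fold -0.16, or -0.073 without Old replicate 14).

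Pdhb, the beta subunit of the decarboxylase, had 106.6, 113 and 135 scaled TPM in Young and 81.9, 101 and 117 in Old. Its log2 fold was -0.17 ± 0.07 (SE), with a limma p of 0.0236 unadjusted and 0.145 adjusted. Its partner subunit Pdha1 had 78.8, 89.8 and 116 in Young and 73.1, 93.1 and 125 in Old (log2 fold 0.05 ± 0.09, SE; limma adjusted p = 0.791). The Young range of Pdha1 lay within the Old range. Dlat had 24.4, 26.5 and 30.4 in Young and 18.5, 26.7 and 31.3 in Old (log2 fold -0.06 ± 0.08, SE; limma adjusted p = 0.648). Set against each other within a liver, Dlat over Pdhx TPM was 0.992 to 1.20 in Young and 1.10 to 1.50 in Old. In AllPrep libraries this ratio did not overlap, at 1.02 to 1.16 in Young and 1.27 to 1.50 in Old, whereas in RNeasy libraries it was 0.992 to 1.20 and 1.10 to 1.28. The ratio was looked at after the values were seen and has no test.

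The carriers did not pass either. Mpc2 had 253, 296 and 455 scaled TPM in Young and 210, 256 and 349 in Old (log2 fold -0.16 ± 0.12, SE, limma adjusted p = 0.435). The log2 fold was -0.39 in AllPrep and 0.019 in RNeasy libraries; the interaction of age with kit was 0.41 ± 0.22 (SE; limma adjusted p = 0.975). Without Young replicate 1, the highest Mpc2 library, the log2 fold was -0.03. Mpc1 had 53.1, 67.6 and 94.3 in Young and 56.6, 69.7 and 99.4 in Old (log2 fold 0.06 ± 0.10, SE; limma adjusted p = 0.738). Mpc2 was 4.11 to 4.82 times Mpc1 in Young and 2.87 to 5.21 times in Old, lowest in Old replicate 7 and highest in Old replicate 17.

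The phosphatase Pdp2 had 23.2, 30.7 and 35.2 scaled TPM in Young and 14.0, 32.2 and 42.9 in Old (log2 fold 0.01 ± 0.16, SE; limma adjusted p = 0.972). Its low end in Old was Old replicate 14 alone; the other 9 Old livers had 26.3 to 42.9. Pdp1, the other phosphatase, was at 0.42 to 1.23 scaled TPM over all livers. Mpc1 overlaps 4930506C21Rik and Pdha1 overlaps Map3k15 on the opposite strand in GENCODE M21, at medians of 1.73 and 1.43 scaled TPM, and the sources used here do not give whether the counting used strand.

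**Figure D3:**
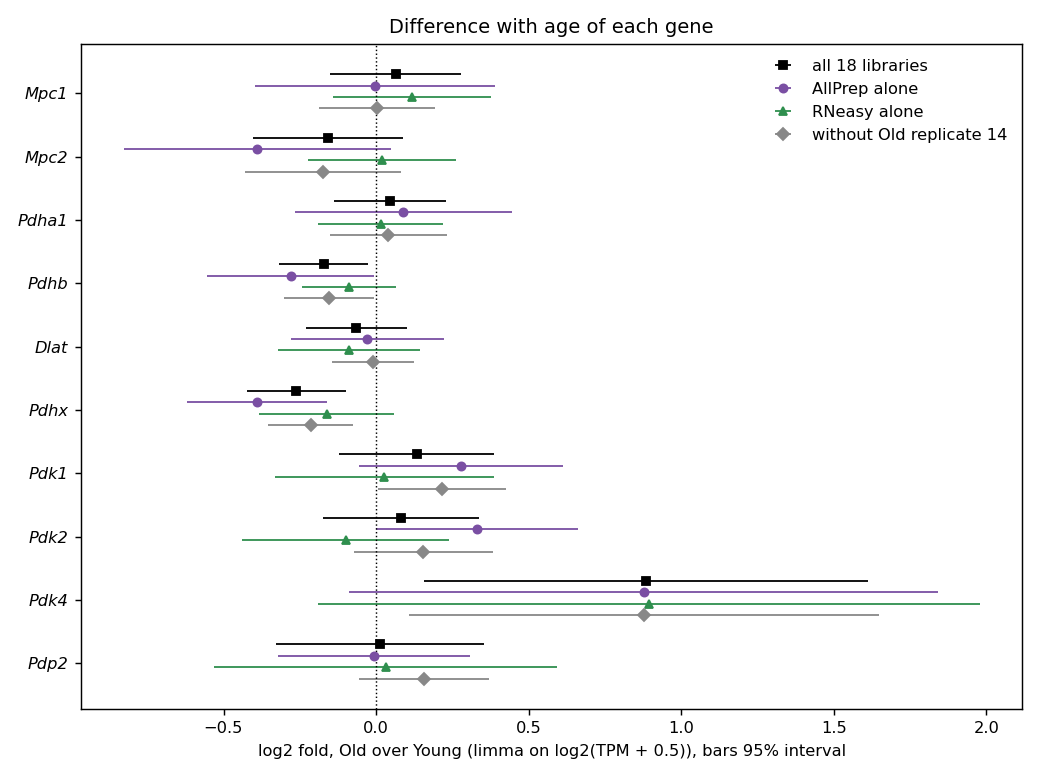
Log2 fold of Old over Young with its 95% interval for the 10 genes, from all 18 libraries, from each RNA kit alone and without Old replicate 14. Pdk4 is near 0.88 in each, with intervals that cross 0 in either kit alone, and Pdhx lies below 0 in each, with an interval that crosses 0 in RNeasy libraries.

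The labelled fluxes give the background for these levels. PDH flux, in a unit the labels do not state, was 0.295, 0.49 and 0.802 (lowest, median, highest) in Young and 0.167, 0.258 and 0.351 in Old. The Old mean was 0.525 times the Young mean (two-sided exact permutation test, p = 0.00123, adjusted over 3 fluxes p = 0.00185), and 6 of 10 Old livers were below the lowest Young liver. The pyruvate share of citrate was 7.16%, 13.2% and 22.6% in Young and 5.52%, 9.52% and 12.5% in Old, with a ratio of means of 0.685 (exact permutation p = 0.0325, adjusted p = 0.0325). The share is PDH flux divided by citrate synthase flux to within 0.0176 percentage points, so both readings carry the same PDH measurement. That difference in share was lost in an exact rank-sum test (adjusted p = 0.146) and when any one of Young replicates 2, 10 and 11 or Old replicates 5, 8 and 16 was left out (adjusted p from 0.0524 to 0.0769).

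Slopes of RNA on flux were fitted with age and kit as terms, and none of the 10 genes passed an adjusted p of 0.05 in limma for PDH flux or for the pyruvate share, as did 0% of all genes for each. Unadjusted, 0 members and 2.25% of all genes had a p under 0.05 for PDH flux. For the share 1 member did, Pdk4, against 1.85% of all genes and 0.828% with a negative slope. Per doubling of PDH flux Pdk4 changed by -0.68 ± 0.35 on the log2 scale (SE; 95% interval -1.42 to 0.06; limma unadjusted p = 0.0709, adjusted p = 1.00), and per doubling of the pyruvate share by -0.80 ± 0.35 (SE; 95% interval -1.53 to -0.06; unadjusted p = 0.0351, adjusted p = 1.00). The slope of Pdk4 on the share was -0.80 in AllPrep and -0.81 in RNeasy libraries, -0.62 without Old replicate 16 and -1.22 without Young replicate 12. Its unadjusted p was 0.0584 to 0.0942 when Young replicate 1 or 10 or Old replicate 5, 15 or 16 was left out. The slope of Pdk4 on PDH flux was -0.45 without Old replicate 16 (limma unadjusted p = 0.197), and its unadjusted p was 0.024 to 0.0463 when Young replicate 12 or Old replicate 8, 15 or 18 was left out. The liver with the highest PDH flux, Young replicate 10 at 0.802, had the lowest Pdk4, 10.7 scaled TPM. The Old liver with the highest Pdk4, Old replicate 16, had a PDH flux of 0.186. Other livers did not follow this order: Old replicate 8, at a flux of 0.174, had 20.5 scaled TPM of Pdk4, and Young replicate 12, at 0.305, had 18.2.

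Pdhx, the anchor protein, had a slope of -0.13 ± 0.08 per doubling of PDH flux (SE; limma adjusted p = 1.00) and -0.11 per doubling of the share, and Mpc2 had slopes of -0.17 in both. The Mpc2 slopes were -0.045 and -0.059 without Young replicate 1, its highest library, and -0.27 and -0.34 without Young replicate 12. Without an age term the Pdhx slopes were positive, at 0.074 and 0.035. The other 7 genes had slopes between -0.11 and 0.09 on PDH flux, with unadjusted p-values of 0.515 or more. An interaction of age with PDH flux was called for 0 of 10 genes in limma, and for 0% of all genes; unadjusted, it had a p under 0.05 for 0 members and 0.885% of all genes. For Pdk4 the slope in Old less that in Young was -0.29 with a 95% interval of -1.82 to 1.24.

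Within each age, 40 correlations of the 10 genes with both flux readings were computed, and 0 passed after adjustment by Pearson or Spearman permutation tests (lowest adjusted Pearson p = 0.629). Unadjusted, 3 had a p under 0.05, all in Young and all negative: 2 of 10 members for PDH flux (r of -0.66 or lower, as in 1.76% of all genes tested) and 1 for the share (r of -0.74 or lower, as in 0.641%). These bounds were taken from the members' own values, so nothing is read from the shares. Pdhx and PDH flux had r = -0.80 (exact permutation p = 0.021, n = 8; rho = -0.83, p = 0.0154) and Pdhx and the share r = -0.74 (exact permutation p = 0.0404; rho = -0.76, p = 0.0368), and r was -0.89 and -0.98 without the 2 livers farthest from the median flux or share. Pdhb and PDH flux had r = -0.66 (exact permutation p = 0.0471; rho = -0.71, p = 0.0576), and r was -0.42 without the 2 farthest livers. In Old the same 3 values were -0.22, -0.08 and 0.27 (n = 10). Pdk4 had r = -0.58 with PDH flux in Young (exact permutation p = 0.13; rho = -0.48, p = 0.243; -0.05 without the 2 farthest) and -0.32 in Old (permutation p = 0.358; rho = -0.28, p = 0.425; -0.20 without them). With the share, Pdk4 had r = -0.52 in Young (exact permutation p = 0.189, rho = -0.38, -0.37 without the 2 farthest). In Old its r with the share was -0.58 (permutation p = 0.079, rho = -0.53, -0.33 without the 2 farthest). Each kit held at most 5 livers of an age, and correlations were computed only over 6 or more, so none is given within a kit.

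**Figure D4:**
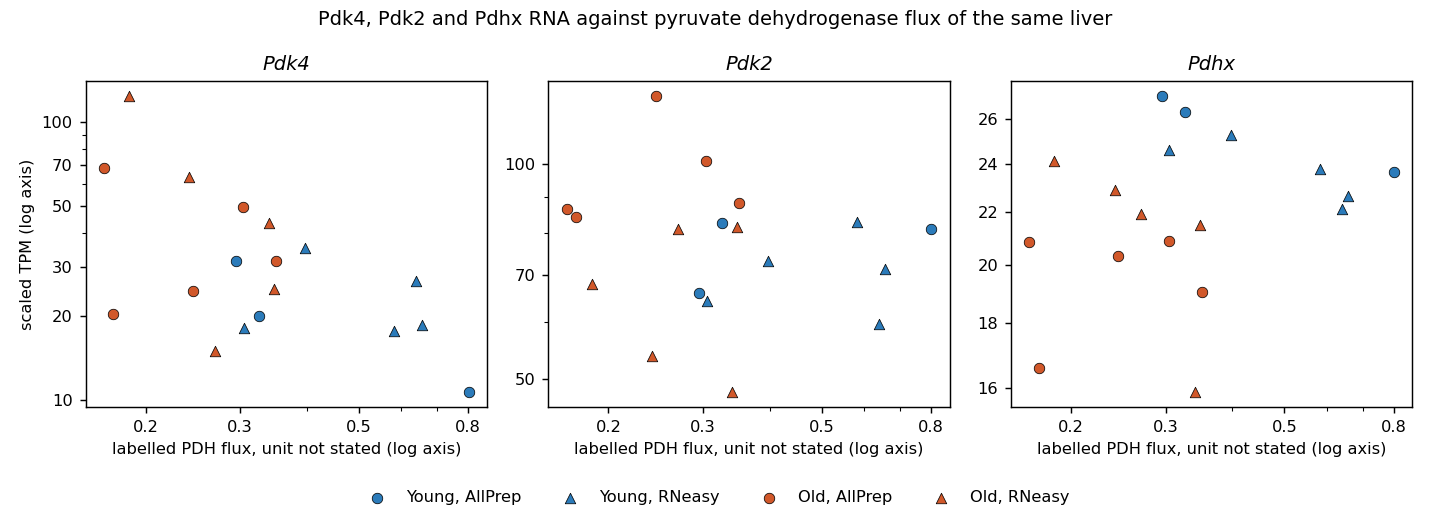
Scaled TPM (log axis) of Pdk4, Pdk2 and Pdhx against labelled PDH flux (log axis, unit not stated) in 8 Young (blue) and 10 Old (orange) livers; circles are AllPrep and triangles RNeasy. Pdk4 is lowest at the highest flux, 0.802, and highest at a flux of 0.186, but Old replicate 8, at 0.174, had 20.5 scaled TPM. No slope on PDH flux was called for any gene shown.

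With age and kit means taken out, several of the 10 genes varied together between livers, described here by Pearson r over 18 livers that share their library. Pdp2 and Dlat had r = 0.81, Pdp2 and Pdhx 0.77, and Dlat and Pdhx 0.72, which became 0.58, 0.59 and 0.53 without Old replicate 14. Pdhb and Pdhx had r = 0.68 with and without it, and Mpc2 and Pdk4 0.68 and 0.69. Pdk1 and Dlat had r = 0.71, or 0.47 without Old replicate 14. Pdk2 ran opposite to Mpc2 at -0.56 and to Pdk4 at -0.38, or -0.60 and -0.44 without that liver. The carrier partners Mpc1 and Mpc2 had r = 0.57.

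**Figure D5:**
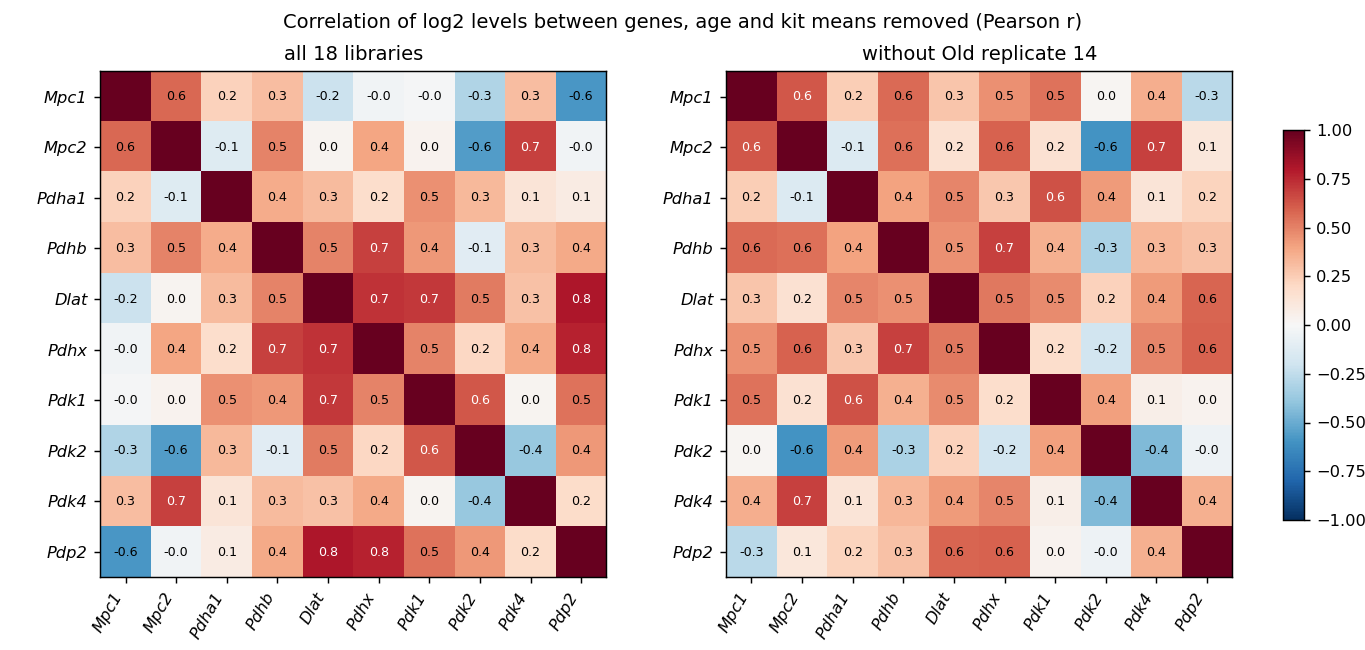
Pearson r between the log2 levels of each pair of the 10 genes after age and kit means were removed, over all 18 livers (left) and without Old replicate 14 (right). Pdp2, Dlat and Pdhx form a positive block that is paler on the right, as is Pdk1 with Dlat, and Mpc2 with Pdk4 stays near 0.7.

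Genes whose levels were most like those of 4 members were found by the same measure over 18 livers. For Pdk4 they were Gadd45b (r = 0.85), a stress-response gene, Gdap2 (0.85), Arl4a (0.85), Dusp6 (0.80), a phosphatase of MAP kinases, and Acot2 (0.79), a mitochondrial acyl-CoA thioesterase. This likeness does not describe differences with age, which were taken out. Young and Old medians were 9.99 and 5.75 scaled TPM for Gadd45b, 27.3 and 25.9 for Gdap2 and 51.4 and 34.4 for Arl4a. They were 39.9 and 50.0 for Dusp6 and 40.1 and 29.3 for Acot2, against 19.3 and 37.5 for Pdk4. For Pdk2 they were Aldh4a1 (0.90), an enzyme of proline breakdown, Gna12 (0.88), Gpt (0.88), an alanine aminotransferase that yields pyruvate, Abcc6 (0.87) and Slc25a48 (0.86). For Pdk1 they included Pipox (0.93), Hibadh (0.90), Mup-ps16 (0.90) and Inmt (0.89). For Pdhx they were Pitpnb (0.95), Hsd17b11 (0.92), Dhrs4 (0.92), Slc17a5 (0.91) and Serpine2 (0.91). Without Old replicate 14, the likeness to Pdk4 was 0.90 for Gadd45b and 0.80 for Acot2, while the likenesses to Pdk1, Pdk2 and Pdhx were all lower than with it, at 0.82 to 0.92.

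The wider pathway was read from 4 lists. Of 8 tested genes that complete or equip the PDH complex, 0 were called in limma; among the smallest p-values were those of Lias and Lipt2, which make and attach its lipoyl arm (-0.16, adjusted p = 0.101, and -0.27, adjusted p = 0.11). Of 15 tested genes of pyruvate supply and use, 1 was called lower in Old, against 2.47% of all genes tested. It was Pck1, which draws carbon from the cycle toward glucose (log2 fold -0.99 ± 0.21, SE, limma adjusted p = 0.0137). Next by p came Me1, the cytosolic malic enzyme (-0.41, adjusted p = 0.0605), and Pkm, a pyruvate kinase (0.45, adjusted p = 0.0763). Of 17 citric acid cycle genes 0 were called, 16 had a log2 fold below 0 and their median was -0.09, with Fh1 at -0.48 (limma adjusted p = 0.0608), Idh3a at -0.35 (0.0797) and Suclg2, the one above 0, at 0.19 (0.0949). For comparison, 6827 of the 13895 genes tested were below 0.

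The last list held 17 genes of fasting and of the fatty acid sensor PPAR-alpha, which are known to rise with Pdk4 in fasting liver. In limma 0 were called higher in Old and 1 lower, against 2.44% and 2.47% of all genes tested. The lower one was Ehhadh, an enzyme of peroxisomal fatty acid oxidation (log2 fold -0.72 ± 0.20, SE, limma adjusted p = 0.0486). The list's median was -0.09 on the log2 scale, and 12 of the 17 were below 0. Ppargc1a, a coactivator of these genes, was at -0.40 (adjusted p = 0.0689) and Cyp4a14, a fatty acid hydroxylase, at -0.86 (adjusted p = 0.147). The 5 members above 0 included Fgf21, a fasting hormone of the liver, at 0.84 (adjusted p = 0.27), Vnn1 at 0.31 and Ppara, the sensor itself, at 0.22; these 3 were chosen after their values were seen. Pdk4 at 0.88 had the opposite sign to the list's median, and the difference between them was not tested.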

How the data were processed

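RNA of 18 mouse livers, 8 Young and 10 Old, was sequenced after ribosomal RNA depletion, per the labels' protocols. The authors deposited TPM values for 18946 genes. STAR 2.7.9a, Subread and featureCounts, and the builds GRCm39 and mm10, are named without roles per the submitters' processing notes; the sources used here do not give gene lengths, annotation or strand setting, so measured genes carry no coordinates. Whole reads were recovered for 18946 genes (within 1e-06; largest distance 2.4e-08).

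Libraries were scaled with trimmed mean log ratios (30% of ratios, 5% of levels trimmed). The 13895 genes that reached 0.5 TPM in 8 or more libraries were tested with limma 3.58.1 (R 4.3.3) on log2(TPM + 0.5), which understates changes of low genes, with a variance trend, age and kit as terms and Benjamini-Hochberg adjustment over all 13895; an adjusted p under 0.05 was a call. Slopes are per doubling of the labelled value. The scripts were tested on simulated data. Correlations and single values used Python 3.11.15, numpy 2.4.6, pandas 2.3.3 and scipy 1.17.1; plots used matplotlib 3.10.9. The mice are separate animals per the labels.

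The 10 genes and the gene lists were chosen with earlier results of these data known. Named genes were the 10, called members of the 4 lists or otherwise the 3 with the smallest p, and, for Pdk4, Pdk1, Pdk2 and Pdhx, the 5 genes most correlated with each (mean scaled TPM of at least 4); 2 genes that met this rule are not reported here. Alternatives covered scaling, pseudocount, filter, kit, library weights, body weight, recovered reads with limma-voom, and each library left out; each kit alone for the slopes, and RNeasy libraries without Old replicate 14, were added after seeing the data.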

Additional observations from a re-analysis of the deposited data

Results flagged for a closer look

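Of 26 groups of values looked at (the 10 genes and 3 fluxes in each age), 4 held a liver far from the others, and chance flags about 1 in 20 groups. Old replicate 16 had 124.3 scaled TPM of Pdk4, against 68.4 in the next Old liver. Old replicate 14, the library that stands apart, had 99.4 scaled TPM of Mpc1, and no other Old liver was above the Young maximum of 94.3. Young replicate 1 was far above the other Young livers in both Mpc2, at 454.7 scaled TPM, and Pdhb, at 135.2 scaled TPM.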

How the results depend on the processing

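The counts of called members stayed at 0 under every alternative run, except that 1 member, Pdhx, was lower without Old replicate 16 or without Old replicate 17 (counts of 0 to 1 over the leave-one-out fits). The log2 folds of Pdk4 (0.67 to 1.09), Pdhx (-0.29 to -0.21) and Pdhb (-0.19 to -0.13) kept their sign with each library left out. The age ratio of PDH flux ranged from 0.496 to 0.574 with each library left out (adjusted p from 0.00108 to 0.00424), and that of citrate synthase flux from 0.743 to 0.779. The ratio of the pyruvate share was 0.685 in the exact rank-sum test, which did not pass, and 0.642 to 0.755 with each library left out. Signs changed, always without a call, with body weight as a term for Mpc2 (0.31), Pdk1 (-0.13), Pdk2 (-0.36), Pdp2 (-0.12) and Pdha1 (-0.26); in AllPrep libraries alone for Mpc1 (-0.0034) and Pdp2 (-0.0069); in RNeasy libraries alone for Mpc2 (0.019) and Pdk2 (-0.10); and in these without Old replicate 14 for Mpc2 (0.0031), Pdk2 (-0.00086) and Pdha1 (-0.0086). Without an age term the Pdhx slopes were 0.074 on PDH flux and 0.035 on the share. Pdp2 ranged from -0.057 to 0.16 over the leave-one-out fits. The cause was not tested. Body weights did not overlap between the ages, so the fit with body weight cannot separate weight from age. Of the slopes of all 10 genes, 7 changed sign under at least 1 alternative for PDH flux and 7 for the share; Pdk4, Pdk2 and Mpc2 did not for either. No paired analysis was possible because no replicate number occurs in both ages.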

Other observations

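Pdk4 was also set against 6 other labelled traits within each age, chosen after the data were seen (12 relations). In Young livers it was lower where the clamp needed more glucose: r = -0.87 with the glucose infusion rate (exact permutation p = 0.00193, adjusted over the 12 p = 0.0232, n = 8; rho = -0.88, p = 0.00724, adjusted p = 0.0869), and -0.83 without the 2 livers farthest from the median. The share of all genes with such an r over these 8 livers was not computed. The Young infusion labels ran from 36.25 to 47 and the Old from 12 to 19. In Old livers r was 0.33 (permutation p = 0.36, adjusted p = 0.616; rho = 0.49, p = 0.148; n = 10) and 0.66 without the 2 farthest. The difference between ages was not tested, and no correlation was computed within the 3 AllPrep or the 5 RNeasy Young livers. The other 10 relations, with citrate synthase flux, fatty acid oxidation, glycogen, suppression of glucose production and insulin during the clamp, had unadjusted Pearson p-values of 0.185 or more.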
